A study of Mus musculus with 91 samples.

Results

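The effect of a high dose of interleukin-2 (IL-2) on splenic regulatory T cells was set against the effect of an IL-2 fusion protein 72 h after injection. The comparison used 20 of the 91 samples of the series, which are 13 of its 75 libraries. All mice were C57/BL6 animals that carry a red fluorescent reporter of the transcription factor Foxp3, and reporter-positive regulatory T cells (Tregs) were sorted from the spleen. The high-dose experiment held 3 libraries labelled High-Dose-PBS, from mice given phosphate-buffered saline, and 3 labelled High-Dose-IL2, from mice given mouse IL-2. The 72 h experiment contributed 3 libraries labelled 72h-PBS and 4 labelled 72h-FP, from mice given a protein that joins mouse IL-2 to its receptor chain CD25 (FP). Each 72 h library was sequenced in 2 runs that are deposited as separate samples, 6 for PBS and 8 for FP, and the counts of both runs were added. The labels give an FP amount of 20 ug and a time of 1.5 h for every sample of the series, and give neither the amount of the high dose nor its time. Ligand, dose, time and experiment therefore cannot be told apart in this comparison, and each experiment has PBS mice of its own. Age and sex, and whether a library came from 1 mouse or from pooled mice, are not given in the sources used here, so p-values measure the spread between these libraries only.

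IL-2 binds a receptor made of Il2ra (CD25), Il2rb (CD122) and the common chain Il2rg, and signals through JAK kinases to the transcription factor STAT5. Tregs carry much Il2ra and depend on IL-2 for survival, for Foxp3 expression and for growth. STAT5 induces its own brakes, the SOCS family proteins Cish, Socs1 and Socs2, and it also raises Il2ra, so these genes are commonly read as a record of receptor signalling. Prolonged signalling drives Tregs into division and into an effector state with granzyme B and the IL-33 receptor.

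The promoters of 4 genes that carry the comparison are shown first, from 250 bases before to 50 bases after the RefSeq transcription start on GRCm38.p6, each on its own gene's strand. Cish and Socs1 are feedback genes on which both effects differed, and Cdk1, the kinase that starts mitosis, and Ifitm3, an interferon-induced antiviral membrane protein, rose with both ligands. Capitals mark matches to the STAT motif TTCNNNGAA in Cish, to the interferon response motif GAAANNGAAA in Socs1 and Ifitm3, and to TTTGAA, the core of the cell cycle homology region, in Cdk1.
Cish, chr9:107296409-107296708, plus strand: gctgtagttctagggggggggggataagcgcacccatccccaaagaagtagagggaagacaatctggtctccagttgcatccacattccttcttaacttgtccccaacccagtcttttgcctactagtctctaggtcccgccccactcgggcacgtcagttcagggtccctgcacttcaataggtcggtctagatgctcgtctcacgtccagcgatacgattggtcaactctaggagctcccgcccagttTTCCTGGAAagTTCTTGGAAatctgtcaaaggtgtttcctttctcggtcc
Socs1, chr16:10785487-10785786, minus strand: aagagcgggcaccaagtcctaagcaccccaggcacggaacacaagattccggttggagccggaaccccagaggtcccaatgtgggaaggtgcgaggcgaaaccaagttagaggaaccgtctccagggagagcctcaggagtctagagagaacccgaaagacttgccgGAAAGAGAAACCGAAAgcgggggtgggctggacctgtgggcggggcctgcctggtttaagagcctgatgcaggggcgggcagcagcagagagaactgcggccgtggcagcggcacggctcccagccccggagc
Cdk1, chr10:69352863-69353162, minus strand: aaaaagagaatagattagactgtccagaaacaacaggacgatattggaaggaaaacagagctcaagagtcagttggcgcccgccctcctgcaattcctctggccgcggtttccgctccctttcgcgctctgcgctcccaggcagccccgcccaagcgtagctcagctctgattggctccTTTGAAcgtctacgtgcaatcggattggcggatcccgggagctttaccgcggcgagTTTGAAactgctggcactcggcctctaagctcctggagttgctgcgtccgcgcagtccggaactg
Ifitm3, chr7:141010695-141010994, minus strand: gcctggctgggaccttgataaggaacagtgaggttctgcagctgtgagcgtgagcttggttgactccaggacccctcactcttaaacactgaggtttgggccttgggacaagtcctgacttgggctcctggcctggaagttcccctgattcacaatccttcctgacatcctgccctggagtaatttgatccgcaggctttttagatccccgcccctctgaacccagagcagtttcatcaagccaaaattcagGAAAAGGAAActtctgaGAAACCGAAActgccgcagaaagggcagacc
The Cish window holds 2 STAT matches, both at or just after the start, and lies inside the Cish gene model of the GENCODE annotation at chr9:107296026-107302784. In Socs1 the 2 interferon response matches overlap. A match describes these letters and is not a binding site.

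Library totals ran from 18688901 to 31527061 counted reads. Levels below are CPM, counts scaled by library size with TMM factors over the 13 libraries. They were compared between libraries and not between genes, since CPM takes no account of gene length. High-Dose-PBS 3 and High-Dose-IL2 2 stood apart from the other libraries of their groups. Reads on TEC genes, a GENCODE class of unverified transcript models, made up 0.245% and 0.161% of their counts, against 0.462% to 0.944% in the other 4 high-dose libraries. These 2 libraries correlated with each other at r = 0.962 over all genes. High-Dose-PBS 3 correlated as closely with High-Dose-PBS 1, at 0.963, and less with High-Dose-PBS 2, High-Dose-IL2 1 and High-Dose-IL2 3, at 0.902, 0.889 and 0.908. High-Dose-IL2 2 correlated at 0.951 and 0.89 with High-Dose-PBS 1 and 2 and at 0.931 and 0.947 with High-Dose-IL2 1 and 3. The correlations alone thus do not set this pair apart from High-Dose-PBS 1. Ikzf2, which encodes the Treg factor Helios, followed the same split at 619, 919.7 and 189 CPM in High-Dose-PBS 1 to 3 and 1623, 415 and 1376 CPM in High-Dose-IL2 1 to 3. High-Dose-IL2 2 also differed in composition, which High-Dose-PBS 3 did not share. Its TMM factor was 0.7116, against 0.9063 to 1.183 in all other libraries, so its CPM values were scaled up the most. Protein-coding genes held 68.65% of its counts, against 77.81% to 85.27% in the others. Where leaving out both High-Dose-PBS 3 and High-Dose-IL2 2 changes the call of a gene described below, the value without them is given. Foxp3 was present in every library, at 584, 571 and 732 CPM in High-Dose-PBS, 473, 739.6 and 442 in High-Dose-IL2, 491, 491 and 466 in 72h-PBS and 449, 565, 542 and 493 in 72h-FP, with no call in either effect. The CD8 marker Cd8a ranged from 1.46 to 3.99 CPM.

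Of 16668 genes in the high-dose table and 18992 in the 72 h table, 16514 were in both and all were tested. FP at 72 h raised 2054 genes and lowered 1963 (edgeR quasi-likelihood test, adjusted p under 0.01), which is 12.4% and 11.9% of the genes tested. With library totals alone it raised 1391 and lowered 2719, since that scaling moved the median FP change over all genes from -0.114 to -0.328 on the log2 scale. Without 72h-PBS 2 it changed 1943 genes and without 72h-PBS 3 it changed 1898. High-dose IL-2 raised 74 genes, 0.448%, and lowered 1, 0.00606%. All 75 were also called with FP in the same direction, and they make up 1.87% of the FP calls. No gene was called in opposite directions. At an unadjusted p under 0.05 the high-dose effect held 2343 genes and the FP effect 8349. The biological coefficient of variation was 40% in the high-dose experiment and 17.1% in the 72 h experiment, and the median standard error of a log2 change was 0.327 and 0.178, so a change of a given size was called less readily with high-dose IL-2.

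The high-dose count rests on few libraries and on the scaling. Its smallest adjusted p was 0.0086, and no gene was called without High-Dose-PBS 1, High-Dose-PBS 3, High-Dose-IL2 2 or High-Dose-IL2 3. Only 1 was called without High-Dose-IL2 1, and 66 without High-Dose-PBS 2. None was called with scaling factors computed within each table, where the smallest adjusted p was 0.012. At 0.05 the high-dose effect held 261 genes higher and 62 lower. With High-Dose-PBS 3 and High-Dose-IL2 2 both left out, 91 genes were higher and 5 lower, and 55 of the 75 were among them. All 75 kept their direction in every alternative that was run.

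The difference of both effects, the log2 change with high-dose IL-2 minus the log2 change with FP, was tested in 1 fit over all 13 libraries. It passed at an adjusted p under 0.01 for 33 genes, 0.2% of those tested, with 16 above 0 (0.0969%) and 17 below 0 (0.103%). At an unadjusted p under 0.05 it held 2206 genes. This fit pools the spread of both experiments, at a biological coefficient of variation of 29.1%, and so can understate the error of the high-dose effect. For the gene Pprc1 the SE of the difference was 0.183, below the 0.193 of its high-dose change alone. With 2 separate fits combined, 29 of the 33 passed. Without High-Dose-PBS 1, 72h-PBS 2, 72h-PBS 3 or 72h-FP 1 no gene passed. Without 72h-FP 3 the count was 1, without High-Dose-IL2 1 or 3 it was 4, without High-Dose-PBS 3 it was 6, without High-Dose-PBS 2 it was 16 and without 72h-PBS 1 it was 22, while it was 27, 32 and 41 without 72h-FP 4, 72h-FP 2 and High-Dose-IL2 2. Without both libraries that stood apart 20 passed above 0 and 60 below, 28 of the 33 among them. It passed for 7 genes above 0 and 19 below with factors from within each table, and for 30 and 78 with library totals alone. All 33 kept their direction in every alternative that was run. None of the 75 genes called with high-dose IL-2 was among the 33. Of the 33, 29 were called with FP, 13 higher and 16 lower, and 4 were called in neither effect.

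Across genes, both effects pointed the same way far more often among genes that FP changed. Of the 2054 genes higher with FP, 1895 (92.3%) had a high-dose log2 change above 0, with a median of 0.528 against 0.964 for FP. Of the 1963 lower with FP, 387 (19.7%) lay above 0, with medians of -0.37 and -1.01. Among the 12497 genes that FP did not change, 48.9% lay above 0, and over all genes 50.8%. The largest FP changes were examined only in the 10699 genes whose level averaged 5 CPM or more over the 13 libraries. Of these, the 110 with an FP log2 change over 4 were all above 0 with high-dose IL-2. Their medians were 4.29 with high-dose IL-2 and 5.01 with FP. The 32 of the 10699 with an FP log2 change of -4 or less had medians of -1.02 and -4.63. In this set the largest FP decreases had much smaller high-dose counterparts than the largest increases had. However, a gene can reach the mean of 5 CPM through 72h-PBS alone. A gene that is low in High-Dose-PBS has little room to fall, so both medians of the decreases are not like for like. Some of these decreases began from unlike PBS levels, for example Spic at means of 62 CPM in 72h-PBS and 2.25 CPM in High-Dose-PBS. The part of the PBS levels in this gap was not tested. Pearson's r over the 16514 genes was 0.688 and Spearman's rank correlation 0.553, a description over genes, which are not independent replicates.

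**Figure D1:**
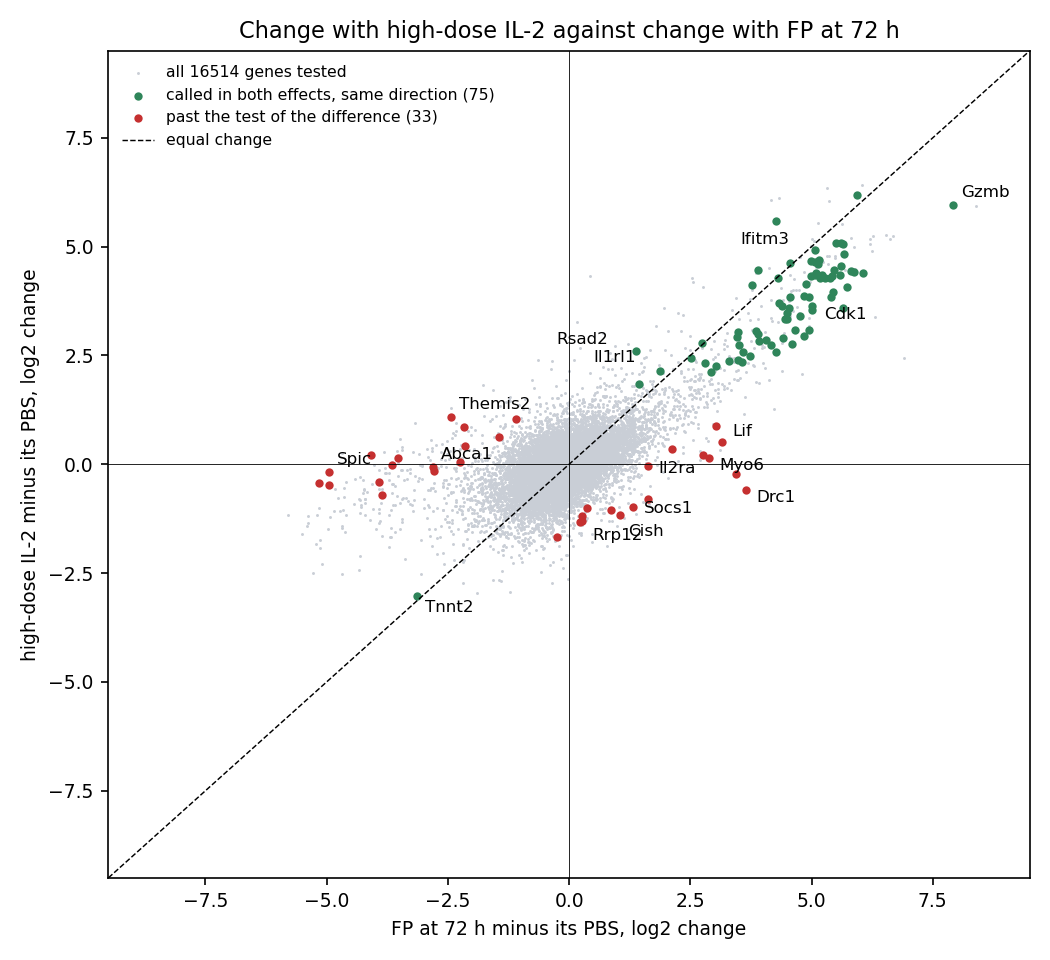
Log2 change with FP at 72 h (x axis) against log2 change with high-dose IL-2 (y axis) for the 16514 genes in both tables. Green points are the 75 genes called in both effects, red points the 33 genes that passed the test of the difference, and the dashed line marks equal changes. Of the green points 74 sit at the upper right, most of them below the line, and 1 at the lower left, and the red points sit away from the line.

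Feedback genes of the IL-2 receptor were among the 17 genes with a difference below 0. Cish (ENSMUSG00000032578.7), which binds the receptor and limits STAT5 activation, was at 144, 156 and 142 CPM in 72h-PBS and 311, 337, 277 and 293 CPM in 72h-FP, with every FP library above every PBS library. In the high-dose experiment it was at 209, 174 and 243 CPM with PBS and 101, 116 and 61.8 CPM with IL-2, with every IL-2 library below every PBS library. Its log2 change was 1.05 ± 0.10 (SE) with FP (edgeR adjusted p = 5e-05) and -1.16 ± 0.28 with high-dose IL-2, which did not pass (edgeR adjusted p = 0.12). The difference was -2.21 ± 0.29, with a 95% interval of -2.84 to -1.58 (edgeR adjusted p = 0.00782).

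Socs1 (ENSMUSG00000038037.4, chr16:10782240-10785536), an inhibitor of JAK kinases, behaved in the same way at 72 h, rising from 57.6, 53.3 and 47.1 CPM in 72h-PBS to 141, 137, 119 and 131 CPM in 72h-FP. With high-dose IL-2 it was at 26.1, 50.3 and 30.5 CPM against 72.2, 49.9 and 87.8 CPM in its PBS libraries, where both groups overlapped only through High-Dose-IL2 2 and High-Dose-PBS 2. The log2 change was 1.32 ± 0.10 with FP (edgeR adjusted p = 1.3e-05) and -0.98 ± 0.32 with high-dose IL-2 (edgeR adjusted p = 0.23). The difference was -2.30 ± 0.33 (95% interval -3.02 to -1.57, edgeR adjusted p = 0.00919). Socs2, the third inhibitor of the family on the panel, differed from both: its high-dose libraries, at 59.7, 83.1 and 48.4 CPM, were all above their PBS libraries at 33.7, 24.7 and 30.5 CPM. FP raised it from 35.4, 34.4 and 29.9 to 182, 208, 172 and 169 CPM, and its difference of -1.35 ± 0.26 did not pass (edgeR adjusted p = 0.0274), while without both libraries that stood apart it was -1.66 (edgeR adjusted p = 0.00422).

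Il2ra (ENSMUSG00000026770.5, chr2:11642807-11693193), the high-affinity receptor chain, showed a rise with FP and level values with high-dose IL-2. It was at 634, 582 and 556 CPM in 72h-PBS and at 1999, 2066, 1757 and 1478 CPM in 72h-FP, a log2 change of 1.63 ± 0.14 (edgeR adjusted p = 3e-05). In the high-dose experiment it was at 632, 637 and 518 CPM with PBS and 622, 607 and 502 CPM with IL-2, and these groups overlapped, with a log2 change of -0.05 ± 0.19. The difference was -1.67 ± 0.23 (95% interval -2.18 to -1.17, edgeR adjusted p = 0.00861). FP contains the same receptor chain as protein, which RNA counts do not register. Il2rb, the signalling chain, rose with FP by 1.23 ± 0.17 on the log2 scale (edgeR adjusted p = 0.00038). Its high-dose values of 682, 1367 and 670.0 CPM overlapped their PBS values of 862, 663 and 1010.0 CPM, and its difference of -1.13 ± 0.38 did not pass (edgeR adjusted p = 0.187).

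Lif, a secreted cytokine that signals through gp130, and Kcnk5, a potassium channel, belong to the same list of SOCS feedback and STAT5 target genes. Lif was at 6.39, 7.19 and 4.64 CPM in 72h-PBS and 67.7, 62.9, 48.4 and 38.7 CPM in 72h-FP, against 7.42, 6.23 and 11.3 CPM in High-Dose-PBS and 14.4, 12.2 and 8.9 CPM in High-Dose-IL2. Only the FP groups were fully apart for it, with a difference of -2.66 ± 0.39 (edgeR adjusted p = 0.00965). Kcnk5 was at 6.26, 3.86 and 4.31 and 35.4, 42.1, 29.4 and 23.4 CPM at 72 h and at 7.87, 5.84 and 7.9 and 7.8, 9.49 and 7.95 CPM in the high-dose experiment, where both groups overlapped, and its difference was -2.54 ± 0.34 (edgeR adjusted p = 0.00814). Over the 26 tested genes of the list, FP raised 13 and lowered 2, against 12.4% and 11.9% of all genes. High-dose IL-2 changed none, near its share of 0.448% raised over all genes. The test of the difference was passed by 4, all below 0, against 0.103% of all genes. The treated libraries of both arms, each relative to its own PBS mean, did not overlap for 15 list members with high-dose below FP, against 8.76% of all genes. They did not overlap for 2 members with high-dose above FP, against 12.8% of all genes. The list's median difference was -1.04, beside 0.0773 over all genes, and -1.16 without both libraries that stood apart, when 8 members passed.

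**Figure D2:**
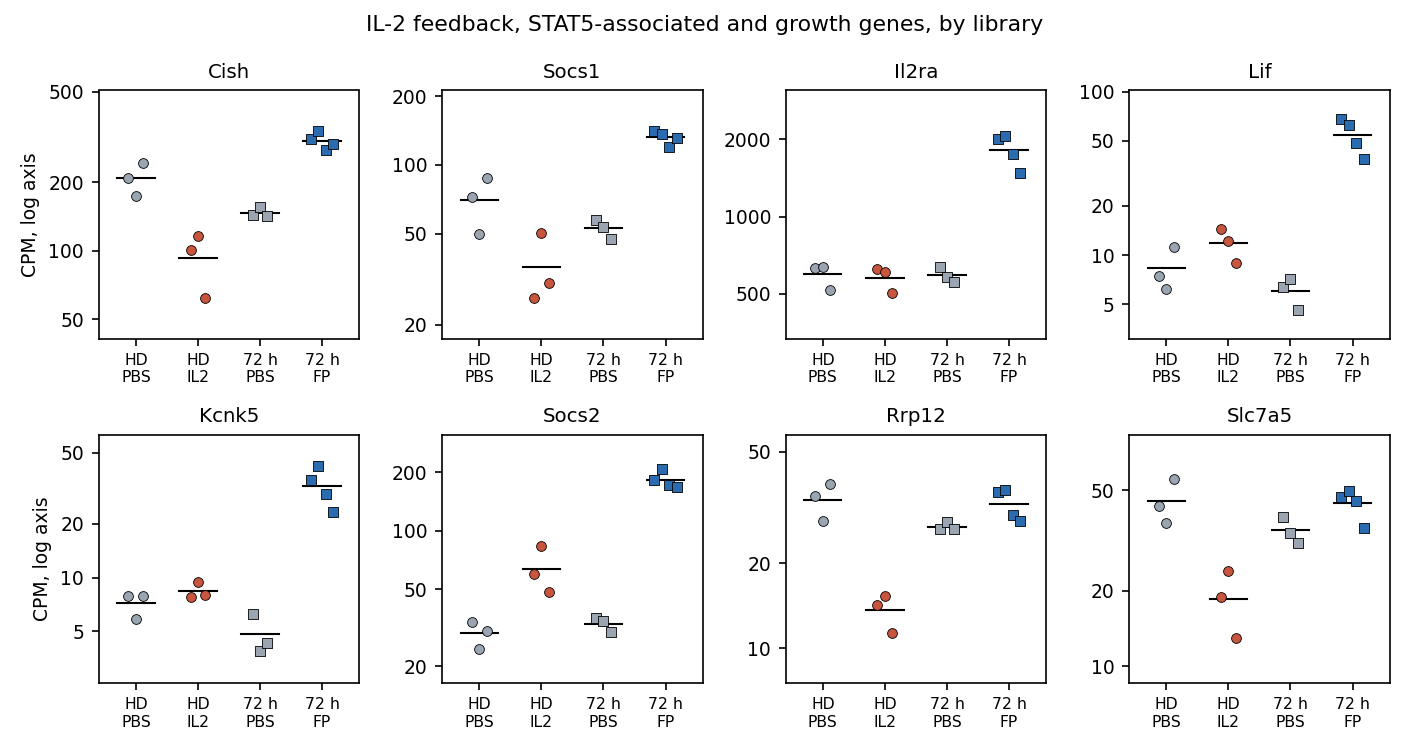
CPM on a log axis for 8 genes of the receptor pathway and of growth, by library, with PBS and treated libraries of the high-dose (HD) and 72 h experiments side by side and a line at each group mean. The 4 FP libraries sit above the 72h-PBS libraries for Cish, Socs1, Il2ra, Lif, Kcnk5 and Socs2, while the high-dose IL-2 libraries sit below theirs for Cish, Rrp12 and Slc7a5.

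Other genes below 0 were raised by FP and level or lower with high-dose IL-2. Myo6, an actin motor that moves towards the minus end of the filament, was at 20.2, 17 and 12.9 CPM in 72h-PBS and 130.1, 139, 107 and 114 CPM in 72h-FP. In the high-dose experiment it was at 17.3, 13.9 and 13.1 CPM with PBS and 18.3, 19.8 and 11.2 CPM with IL-2, and its difference was -2.72 ± 0.31 (edgeR adjusted p = 0.00551). Drc1, a subunit of the motor regulator of cilia, had the largest negative difference among the 33, -4.23 ± 0.54 (edgeR adjusted p = 0.00767), with 3.43, 4.58 and 2.17 and 50.3, 51.8, 43.5 and 25.7 CPM at 72 h. Its high-dose values of 3.9, 2.7 and 1.24 CPM were close to or under the 3.9, 4.11 and 3.71 CPM of High-Dose-PBS. Tcrg-C1, a constant segment of the T cell receptor gamma locus, was at 2.92, 2.07 and 1.35 CPM in 72h-PBS and 30, 26.6, 21.9 and 13.1 CPM in 72h-FP, but between 1.17 and 1.78 CPM in all 6 high-dose libraries. Reads of its near-identical sister segments may be shared with it. Its difference was -3.66 ± 0.48 (edgeR adjusted p = 0.00782).

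Genes of DNA repair were among them too. Dna2, a nuclease and helicase of replication and repair, was at 5.16, 5 and 5.22 CPM in High-Dose-PBS and 9.77, 10.8 and 7.74 CPM in High-Dose-IL2, and went from 4.19, 4.37 and 3.98 to 36.5, 29.4, 41.7 and 29.2 CPM at 72 h. Its high-dose groups did not overlap, yet its FP change was larger, with a difference of -2.15 ± 0.25 (edgeR adjusted p = 0.00583). Rmi2, a partner of the BLM helicase, had a difference of -1.77 ± 0.24 (edgeR adjusted p = 0.008) from 9.72, 9.05 and 11.8 to 13.4, 14.1 and 11.3 CPM with high-dose IL-2 and 8.88, 8.88 and 9.48 to 39, 34.3, 48.6 and 35.5 CPM with FP. Lonrf1, a ring finger protein, and Usp27x, a ubiquitin protease, differed by -2.42 ± 0.34 and -1.92 ± 0.28 (edgeR adjusted p = 0.00861 and 0.00881). Both rose with FP, and for both all 3 High-Dose-IL2 libraries were below all 3 High-Dose-PBS libraries.

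A further 5 of the 17 genes below 0 had low values with high-dose IL-2, none of them called in that effect. Pprc1, a coactivator of mitochondrial biogenesis, was at 90.4, 91.6 and 121 CPM in High-Dose-PBS and 33.1, 31.4 and 30.4 CPM in High-Dose-IL2, a log2 change of -1.68 ± 0.19 (edgeR adjusted p = 0.0102). At 72 h it was at 78.7, 84.9 and 80.5 CPM with PBS and 63.4, 70.8, 68.9 and 72.3 CPM with FP, a far smaller gap, and its difference was -1.44 ± 0.18 (edgeR adjusted p = 0.00767). Rrp12, which exports both ribosomal subunits from the nucleus, was at 34.6, 28.3 and 38.3 CPM in High-Dose-PBS, 14.2, 15.3 and 11.3 in High-Dose-IL2, 26.6, 28 and 26.4 in 72h-PBS and 35.8, 36.3, 29.7 and 28.3 in 72h-FP. Its high-dose IL-2 libraries were all below their PBS libraries and its FP libraries all above theirs, and its difference was -1.58 ± 0.23 (edgeR adjusted p = 0.00881). Bysl, another small-subunit assembly factor, and Mthfd1, a folate enzyme, differed by -1.38 ± 0.20 and -1.44 ± 0.21 (edgeR adjusted p = 0.00881 and 0.00972). Prag1, a cytoskeletal pseudokinase scaffold, was at 70.6, 59.6 and 74.9 and 28, 23.5 and 29.9 CPM in the high-dose experiment and 55.2, 56.3 and 42.5 and 57.3, 61.5, 70.3 and 52.6 CPM at 72 h, with a difference of -1.57 ± 0.22 (edgeR adjusted p = 0.00861). Pprc1, Prag1, Rrp12 and Mthfd1 are the 4 genes called in neither effect, named after their values were seen.

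Ribosome biogenesis genes as a list also lay low with high-dose IL-2. Of the 40 tested, high-dose IL-2 changed none and FP raised 2, against 0.448% and 12.4% of all genes raised. The test of the difference was passed by 1, below 0, against 0.103% of all genes. Without both libraries that stood apart 6 passed, and with library totals alone 12, all below 0. Only 3 had a high-dose log2 change above 0, against 26 with FP, beside 8392 and 6858 of all 16514 genes. The list medians were -0.646 and 0.184. The arms did not overlap for 29 of the 40 with high-dose below FP and for 1 with high-dose above it, against 8.76% and 12.8% of all genes. Nolc1, a nucleolar chaperone, was at 71.4, 59.8 and 86.5 CPM in High-Dose-PBS and 33.2, 47 and 33.1 CPM in High-Dose-IL2, against 59.3, 53.7 and 46.5 and 75.1, 76.7, 61.7 and 54.6 CPM at 72 h. Slc7a5, the large neutral amino acid transporter, was at 43.2, 37.1 and 55.5 and 18.8, 23.9 and 12.9 CPM with high-dose PBS and IL-2, with both groups apart, and at 39.3, 33.7 and 30.9 and 47.1, 49.5, 45.3 and 35.5 CPM at 72 h. Its difference of -1.65 ± 0.31 did not pass (edgeR adjusted p = 0.0245) and did without both libraries that stood apart, at -1.78 (edgeR adjusted p = 0.00655). Summed immediate early and handling stress genes, which sorting can induce, ranged from 3762 to 7329 CPM in the high-dose libraries and from 2280 to 4160 CPM at 72 h, and their part in these results was not tested.

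The genes with a difference above 0 were led by genes that fell with FP from raised levels in 72h-PBS. Spic (ENSMUSG00000004359.16), the transcription factor of red pulp macrophages, was at 28.4, 90.9 and 66.6 CPM in 72h-PBS and 2.16, 3.81, 0.798 and 1.27 CPM in 72h-FP. It was at 2.16, 2.97 and 1.64 CPM in High-Dose-PBS and 1.93, 2.25 and 1.77 CPM in High-Dose-IL2, so that the 72h-PBS libraries stood above the other 10. The difference was 4.77 ± 0.71 (95% interval 3.24 to 6.31, edgeR adjusted p = 0.00972), and 4.43 without both high-dose libraries that stood apart, when it no longer passed (edgeR adjusted p = 0.016). Zeb2, a repressor found in macrophages and in effector T cells, was at 24.5, 65.3 and 50.8 and 3.31, 4.05, 1.51 and 2.23 CPM at 72 h and at 2.09, 2.47 and 0.975 and 2.17, 1.8 and 2.43 CPM in the high-dose experiment. Its difference was 4.31 ± 0.60 (edgeR adjusted p = 0.00861), and the strand used in counting is not given in the sources used here, so reads of its antisense gene cannot be told from its own.

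Macrophage and monocyte markers moved with these genes. The summed level of the 18 tested markers of 21 was 316 to 413 CPM in High-Dose-PBS, 338 to 492 CPM in High-Dose-IL2, 1120 to 2430 CPM in 72h-PBS and 227 to 492 CPM in 72h-FP. FP lowered 16 of the 18 and raised 1, the monocyte chemokine receptor Ccr2, against 11.9% and 12.4% of all genes. High-dose IL-2 changed none, against 0.448% of all genes raised and 0.00606% lowered. The list medians were -3.46 with FP and -0.652 with high-dose IL-2, where 4 of the 18 lay above 0, and the median difference was 2.93. All 18 had a difference above 0, beside 9228 of all 16514 genes. Spic was the 1 member that passed the test above 0, against 0.0969% of all genes. Csf1r, the macrophage growth factor receptor, was at 113, 292 and 187 CPM in 72h-PBS and 13.6, 23.1, 3.74 and 9.44 CPM in 72h-FP, and at 31.7, 32.7 and 33.5 CPM in High-Dose-PBS and 9.81, 15.2 and 10.2 CPM in High-Dose-IL2. It was lower in every treated library than in every PBS library of its experiment. The complement gene C1qa was at 26.6, 65.8 and 46.5 CPM in 72h-PBS and 5.27, 7.26, 1.26 and 2.8 CPM in 72h-FP, and at 9.58, 9.2 and 9.82 and 3.62, 7.49 and 4.45 CPM with high-dose PBS and IL-2. The haem oxygenase gene Hmox1 was at 97.9, 229 and 149 and 6.38, 16, 3.82 and 6.14 CPM at 72 h and at 21.8, 20.3 and 26.6 and 9.89, 15.3 and 11 CPM in the high-dose experiment. For both genes every treated library was below every PBS library of its experiment. Spic, Csf1r, C1qa and Hmox1 were above 0 in all 13 libraries. In bulk RNA fewer cells of a type and less RNA per cell cannot be told apart, and the part of macrophage RNA in the differences above 0 was not tested. When genes over 4 times higher in 72h-PBS than in High-Dose-PBS were left out of the count, a choice made after seeing the data, 8 of the 16 remained above 0 and all 17 below.

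**Figure D3:**
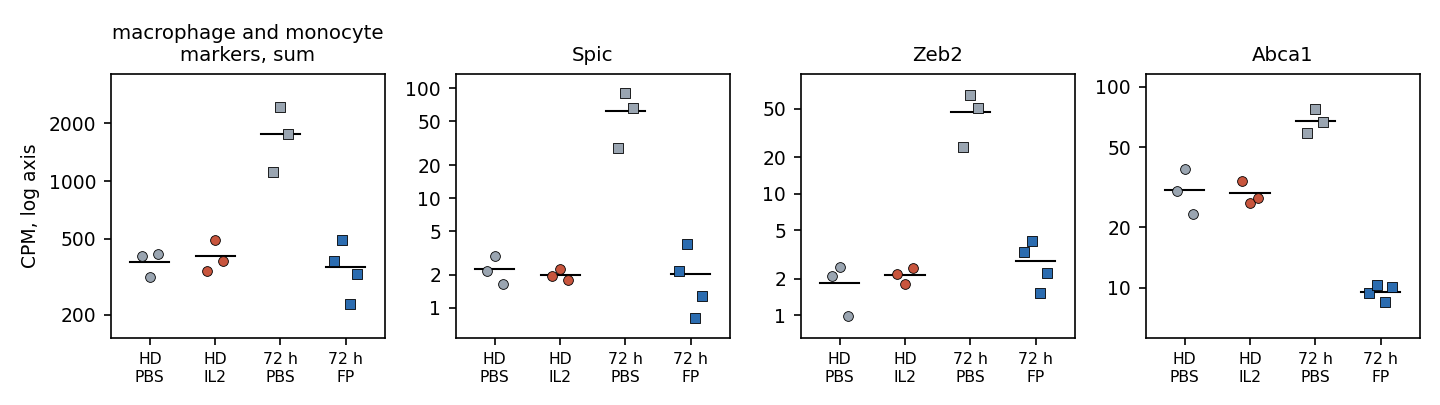
Summed CPM of macrophage and monocyte markers and CPM of Spic, Zeb2 and Abca1 on log axes, by library, with a line at each group mean. The 72h-PBS libraries sit above all other libraries for the marker sum, Spic, Zeb2 and Abca1, and the FP libraries sit lowest for Abca1.

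Abca1 (chr4:53030787-53159895), which exports cholesterol from cells, had the smallest p of the test of the difference. It was at 30.4, 38.7 and 23.2 CPM in High-Dose-PBS and 33.9, 26.5 and 27.9 CPM in High-Dose-IL2, where both groups overlapped. At 72 h it was at 58.7, 77.3 and 66.8 CPM with PBS and 9.44, 10.3, 8.49 and 10.1 CPM with FP. The FP libraries were thus below the high-dose libraries too, unlike those of Spic, which lay near them. Its FP change was -2.82 ± 0.12 and its difference 2.75 ± 0.26 (edgeR adjusted p = 0.00169). It was called in 20 of the 25 alternatives, against 8 for Tcf7l2 and Sdc3, 10 for Spic, Grk3, Socs1 and Usp27x and 16 for Cish and Drc1.

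Themis2 and Cybb moved in opposite directions in the 2 experiments without an opposite pair of calls. Themis2, a signalling adaptor of B cells and macrophages, was at 2.86, 1.98 and 3.05 CPM in High-Dose-PBS and 4.59, 6.74 and 5.48 CPM in High-Dose-IL2, with both groups apart, and at 11.1, 28 and 18.3 and 3.4, 4.97, 2.65 and 3.1 CPM at 72 h. Cybb, the catalytic subunit of the phagocyte oxidase, was at 29.1, 20.6 and 25.5 and 53.6, 36.3 and 65.8 CPM with high-dose PBS and IL-2 and at 38, 46.3 and 45.7 and 18.6, 22.5, 16.3 and 23.8 CPM at 72 h. For both genes the IL-2 libraries were above their controls and the FP libraries below theirs. The differences were 3.52 ± 0.47 and 2.14 ± 0.30 (edgeR adjusted p = 0.008 and 0.00861). The remaining named genes above 0 were Grk3, a kinase of G protein-coupled receptors, at 4.71 ± 0.67, the potassium channel gene Kcna2 at 3.64 ± 0.54, the junction protein gene Jup at 3.51 ± 0.53, the Wnt effector gene Tcf7l2 at 3.15 ± 0.48, the synaptic protein gene Rims3 at 2.63 ± 0.39 and the syndecan gene Sdc3 at 2.57 ± 0.39. Without both high-dose libraries that stood apart, Grk3, Tcf7l2 and Sdc3 no longer passed (edgeR adjusted p = 0.0113, 0.0163 and 0.0102). For each of the 6 genes the 72h-PBS libraries lay above the other 10, for example Kcna2 at 26.5, 58.9 and 52.2 CPM in 72h-PBS, 3.02, 3.65, 2.56 and 5.3 CPM in 72h-FP and 3.6 to 8.65 CPM in the high-dose libraries.

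Of 29 resting T cell genes, 26 had a difference above 0, beside 9228 of all 16514 genes, and none passed. Il7r, the IL-7 receptor chain that resting T cells use for survival, was at 271, 297 and 319 CPM in High-Dose-IL2 and 145, 131 and 35.6 CPM in High-Dose-PBS. At 72 h it fell from 183, 157 and 159.8 CPM with PBS to 57.5, 60.1, 74 and 92.2 CPM with FP (log2 change -1.23 ± 0.16, edgeR adjusted p = 0.00027). Its groups were apart in opposite directions in both experiments. The difference was 2.74 ± 0.52 (edgeR adjusted p = 0.0249), and 2.25 without both libraries that stood apart, when it passed (edgeR adjusted p = 0.00268). Tcf7, the factor of quiescent and memory T cells, fell with FP from 450.1, 399.8 and 393 to 175, 239, 209.7 and 245 CPM and was at 554, 475 and 678 CPM in High-Dose-PBS and 481, 778 and 584 CPM in High-Dose-IL2, where the groups overlapped. Its difference was 1.04 ± 0.28 (edgeR adjusted p = 0.0875). FP lowered 11 of the 29 and raised 1, against 11.9% and 12.4% of all genes, and high-dose IL-2 changed none, against 0.448% raised. The arms did not overlap for 17 with high-dose above FP and 1 below, against 12.8% and 8.76% of all genes. Ccr7, the lymph node homing receptor, was among the genes FP lowered, at 167, 143 and 119.7 CPM in 72h-PBS and 83.3, 80.6, 82 and 66.4 CPM in 72h-FP, and its high-dose change of -0.34 ± 0.28 had the same sign.

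The shared changes were led by cell division and by granzyme B. Gzmb (ENSMUSG00000015437.4, chr14:56258838-56262260), the protease of cytotoxic granules, was at 2.89, 1.83 and 3.46 CPM in High-Dose-PBS and 109, 277 and 126 CPM in High-Dose-IL2. At 72 h it was at 5.12, 2.17 and 1.85 CPM with PBS and 756, 826, 816 and 525 CPM with FP, so treated libraries lay far above every PBS library in both experiments. The log2 change was 5.95 ± 0.51 with high-dose IL-2 (edgeR adjusted p = 0.00862) and 7.92 ± 0.39 with FP (edgeR adjusted p = 1.4e-06). The difference of -1.96 ± 0.58 did not pass (edgeR adjusted p = 0.126). Of the 75 shared genes 66 changed less with high-dose IL-2. The median log2 change over the 75 was 3.71 with high-dose IL-2 and 4.66 with FP.

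Cell cycle genes were frequent among the 75. Replication-dependent histone genes numbered 20 of the 41 tested, mitosis genes 13 of 44 and DNA replication genes 2 of 44. High-dose IL-2 raised 0.448% of all genes. Libraries made after removal of ribosomal RNA retain histone transcripts, which lack a poly(A) tail. Cdk1 was at 2.16, 1.34 and 2.11 CPM in High-Dose-PBS, 27, 20.2 and 18.4 CPM in High-Dose-IL2, 2.5, 2.07 and 2.05 CPM in 72h-PBS and 87.5, 87, 70.2 and 38.3 CPM in 72h-FP. Both treated groups were above all PBS libraries, with log2 changes of 3.54 ± 0.31 and 5.00 ± 0.32 (edgeR adjusted p = 0.00862 and 3.8e-06) and a difference of -1.47 ± 0.41 (edgeR adjusted p = 0.104). Hmmr and Kif4, which act on the mitotic spindle and chromosomes, rose by 5.09 and 4.65 with high-dose IL-2 and by 5.51 and 5.08 with FP on the log2 scale. Ckap2l, a spindle protein, rose by 4.92 and 5.08, and Prr11, a regulator of cell cycle progression, by 4.68 and 5.16.

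Mki67, the proliferation marker, showed how the libraries that stood apart bear on the high-dose calls. It was at 28.8, 29.3 and 7.33 CPM in High-Dose-PBS and 728, 150.4 and 454 CPM in High-Dose-IL2, where the lowest value of each group belongs to High-Dose-PBS 3 and High-Dose-IL2 2. At 72 h it was at 60.2, 51.5 and 42.1 CPM with PBS and 1274, 1446, 1356 and 781 CPM with FP. Its high-dose change of 4.35 ± 0.77 did not pass (edgeR adjusted p = 0.0419) and did without both libraries (edgeR adjusted p = 0.00384), and its difference was -0.21 ± 0.72. All 44 mitosis genes rose with FP and all 44 had a high-dose change above 0, against 12.4% and 50.8% of all genes. The medians were 4.48 with FP and 3.59 with high-dose IL-2. With both libraries left out high-dose IL-2 raised 23 of the 44. With factors from within each table, or with library totals alone, it raised none, with list medians of 3.56 and 3.33.

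Histone and replication genes rose with FP and were called in part with high-dose IL-2. Hist1h4a was at 9.72, 8.26 and 10.2 CPM in High-Dose-PBS, 75.1, 80.7 and 61.2 CPM in High-Dose-IL2, 8.92, 7.13 and 4.6 CPM in 72h-PBS and 431, 169, 129 and 58.9 CPM in 72h-FP. The FP libraries of this histone H4 gene spread widely and their lowest value lay under the 3 high-dose IL-2 values. Histone genes are near-identical copies, so reads may be split or shared among them. Among the 41 tested, high-dose IL-2 raised 20 and FP 39, with medians of 3.85 and 4.95. Among 44 replication genes high-dose IL-2 raised 2 and FP all 44, with medians of 1.2 and 2.26 and a median difference of -1.2. Over all genes high-dose IL-2 raised 0.448% and FP 12.4%. The arms did not overlap, with high-dose below FP, for 35 of 44 replication genes, 8 of 41 histone genes and 14 of 44 mitosis genes, against 8.76% of all genes, and none of them passed the test of the difference. Cdc6, which loads the replicative helicase, was at 2.54, 3.66 and 3.81 CPM in High-Dose-PBS, 17.6, 20.5 and 12.1 CPM in High-Dose-IL2, 3.34, 2.89 and 2.59 CPM in 72h-PBS and 52.2, 45.1, 56 and 33.8 CPM in 72h-FP, a difference of -1.66 ± 0.34 (edgeR adjusted p = 0.0346). The differences between lists were not tested.

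**Figure D4:**
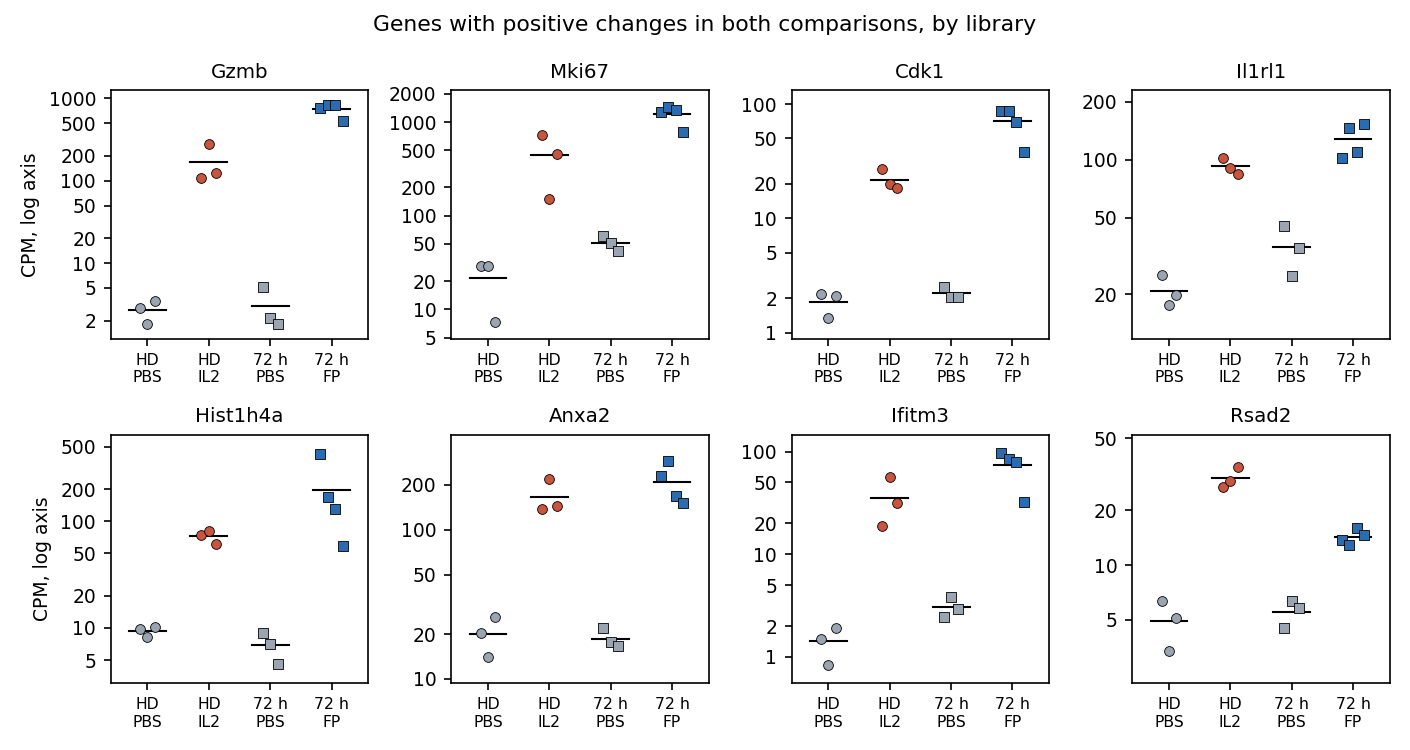
CPM on a log axis for 8 genes with positive changes in both comparisons, by library, with PBS and treated libraries of the high-dose (HD) and 72 h experiments side by side and a line at each group mean. Treated libraries sit above the PBS libraries of their own experiment in all 8 panels, and the FP libraries sit above the high-dose IL-2 libraries for Gzmb and Cdk1 but below them for Rsad2.

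Only 4 of the 75 shared genes had a 95% interval of the difference that lay within 1 log2 unit of 0, against 34% of all genes. Il1rl1, the IL-33 receptor of effector Tregs, was at 25.2, 17.7 and 19.7 CPM in High-Dose-PBS and 102, 90.5 and 84.3 CPM in High-Dose-IL2, and at 45.3, 25 and 34.9 and 102, 146, 109.9 and 152 CPM at 72 h. All treated libraries were above all PBS libraries of both experiments. Its log2 changes were 2.15 ± 0.21 and 1.87 ± 0.21 (edgeR adjusted p = 0.00919 and 0.00015), with a difference of 0.28 ± 0.31 (95% interval -0.39 to 0.95). Tnnt2, the cardiac troponin T gene, was the single shared gene that fell. It was at 6.62, 9.79 and 7.9 CPM in High-Dose-PBS, 1.17, 0.999 and 0.824 CPM in High-Dose-IL2, 6.72, 6.16 and 6.4 CPM in 72h-PBS and 0.623, 0.602, 0.672 and 0.967 CPM in 72h-FP, with log2 changes of -3.02 and -3.14 and an interval of -0.62 to 0.88. Without both libraries that stood apart, Tnnt2 and Gm14005 were no longer called with high-dose IL-2 (edgeR adjusted p = 0.0128 and 0.0127). The other 2 were Nhsl2, at 2.79 and 2.74, and the predicted gene Gm14005, at 2.44 and 2.52. These 4 genes were named after their values were seen.

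Effector genes were shared in part. Icos, a costimulatory receptor of effector Tregs, rose with FP by 1.25 ± 0.16 (edgeR adjusted p = 0.00033), and its high-dose change of 1.06 ± 0.22 had groups apart but did not pass (edgeR adjusted p = 0.0728). Prdm1, which encodes the effector regulator Blimp-1, rose with FP by 0.96 ± 0.10 (edgeR adjusted p = 8.2e-05), and was at 29, 19.5 and 25.6 CPM in High-Dose-PBS and 40.4, 109 and 48.6 CPM in High-Dose-IL2, apart but without a call. Gzma, a second granzyme, was at 4.26, 17.9 and 9.35 CPM in High-Dose-IL2 against at most 0.378 CPM in any PBS library of either experiment, and at 32.3, 32.1, 35.5 and 10.3 CPM in 72h-FP. Its high-dose change did not pass (edgeR adjusted p = 0.0434). Of 25 effector Treg genes high-dose IL-2 raised 1 and FP raised 13 and lowered 5, against 0.448%, 12.4% and 11.9% of all genes. Of 21 Treg identity genes FP raised 8 and lowered 1. High-dose IL-2 changed none of them, which is near its share over all genes.

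Of 20 S100, annexin and galectin genes FP raised 14 and high-dose IL-2 raised 1, against 12.4% and 0.448% of all genes. All 20 had a high-dose change above 0, against 50.8% of all genes, and the medians were 1.37 with FP and 1.2 with high-dose IL-2. Anxa2, an annexin that binds membranes through calcium, was at 20.3, 14.1 and 26 CPM in High-Dose-PBS, 138, 219 and 144 CPM in High-Dose-IL2, 21.9, 17.6 and 16.5 CPM in 72h-PBS and 229, 289.7, 169.8 and 152 CPM in 72h-FP. Its treated groups were apart from all PBS libraries and overlapped each other. Vim, the vimentin gene, went from 321, 252 and 237 to 1812, 1706, 1469 and 1087 CPM with FP and was at 276, 243 and 301 and 707, 1303 and 715 CPM in the high-dose experiment, with a high-dose edgeR adjusted p of 0.0374.

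Interferon-stimulated genes had near-equal medians in both effects but split by gene. Of 58 tested, FP raised 44 and lowered 1 and high-dose IL-2 raised 2, against 12.4%, 11.9% and 0.448% of all genes. The medians were 1.05 with FP and 1.09 with high-dose IL-2, with a median difference of 0.0476. Ifitm3 was at 1.5, 0.841 and 1.92 CPM in High-Dose-PBS and 18.7, 56 and 31.8 CPM in High-Dose-IL2, and at 2.45, 3.82 and 2.95 and 97.1, 84.3, 79.8 and 32.1 CPM at 72 h, with log2 changes of 4.62 ± 0.52 and 4.56 ± 0.39. Rsad2, the antiviral enzyme viperin, was at 6.34, 3.36 and 5.13 and 27.1, 29 and 34.9 CPM in the high-dose experiment and 4.48, 6.3 and 5.79 and 13.7, 12.9, 16 and 14.7 CPM at 72 h. Without both libraries that stood apart its high-dose change no longer passed (edgeR adjusted p = 0.0143). Every high-dose IL-2 library was above every FP library for Rsad2, and its difference was 1.24 ± 0.31 (edgeR adjusted p = 0.068). Ifi44, another interferon-induced gene, was at 0.105, 0.495 and 0.378 CPM in High-Dose-PBS and 6.6, 3 and 9.97 CPM in High-Dose-IL2, while its 72 h groups overlapped at 1.35, 1.45 and 2.59 and 2.88, 1.2, 2.02 and 3.6 CPM. Its difference was 3.90 ± 0.78 (edgeR adjusted p = 0.0298). Ifitm1, a neighbour of Ifitm3, went the other way, with 0.314, 0.247 and 0.252 and 1.33, 2.55 and 0.659 CPM in the high-dose experiment, 0.127, 0.207 and 0.041 and 15.9, 20.8, 14.9 and 12.9 CPM at 72 h and a difference of -4.48 ± 0.74 (edgeR adjusted p = 0.0144). Without both libraries that stood apart this difference was -5.21 and passed (edgeR adjusted p = 0.00486). The Ifitm genes are close copies and reads may be shared among them. Socs1 is on this list as well and was its 1 member past the test of the difference, below 0, against 0.103% of all genes.

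Metabolic and chaperone lists held FP calls and no high-dose calls. High-dose IL-2 raised 0.448% of all genes and lowered 0.00606%, and at those shares lists of this size may well hold none. FP raised 27 of 35 oxidative phosphorylation genes, 15 of 23 glycolysis genes with 1 lower, 18 of 25 chaperones and 7 of 23 amino acid supply genes. Over all genes FP raised 12.4% and lowered 11.9%. The high-dose medians of these lists were 0.474, 0.34, 0.0697 and 0.0535, against FP medians of 1.03, 0.707, 0.87 and 0.356. Eno1, a glycolytic enzyme, was at 198, 168 and 160.0 CPM in 72h-PBS and 531, 560.4, 464 and 337 CPM in 72h-FP, and at 304, 208 and 377 and 244, 466 and 277 CPM in the high-dose experiment, where both groups overlapped. The arms did not overlap, with high-dose below FP, for 14 of 25 chaperones and 10 of 23 amino acid supply genes, against 8.76% of all genes. None of either list passed the test of the difference in the main fit. Slc7a5 passed without both libraries that stood apart, and 1 amino acid supply gene passed with library totals alone. With the TEC share as a slope within the high-dose libraries, 7 chaperones and 8 amino acid supply genes passed, all below 0. Of 29 cholesterol genes FP raised 7 and lowered 2, against 12.4% and 11.9% of all genes. Abca1 was the 1 member past the test of the difference, above 0, against 0.0969% of all genes.

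**Figure D5:**
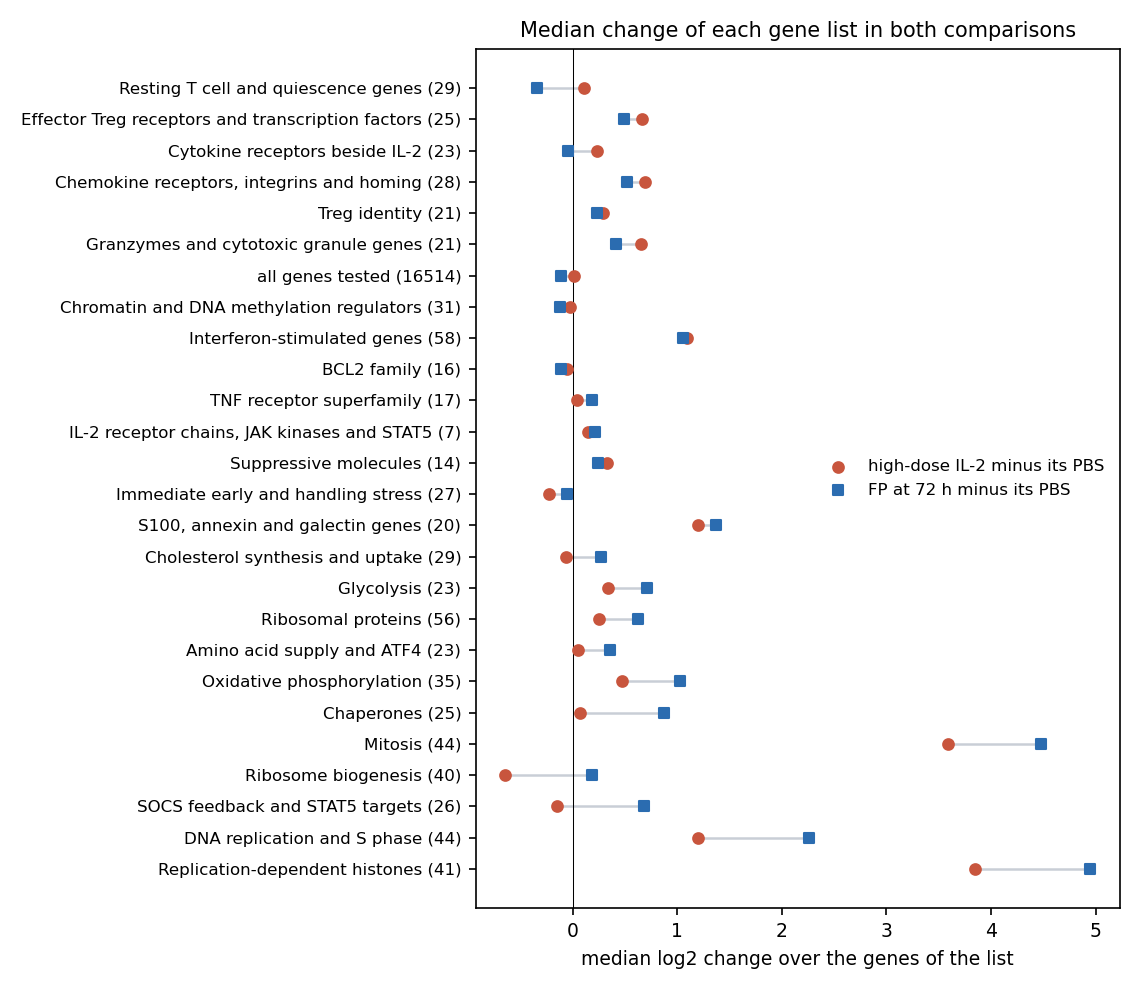
Median log2 change of each gene list with high-dose IL-2 and with FP at 72 h (x axis), 1 row a list, sorted by the median difference. Mitosis and histone lists have the highest medians in both effects, and the ribosome biogenesis list lies at -0.646 with high-dose IL-2 and 0.184 with FP.

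Markers of other cell types were summed in the same way. Summed B cell markers were 369 to 625 CPM in High-Dose-PBS, 790 to 1530 CPM in High-Dose-IL2, 542 to 668 CPM in 72h-PBS and 485 to 619 CPM in 72h-FP. Most of this sum was Ighm, the heavy chain gene. Of the B cell receptor components, Cd79a was at 8.22, 6.88 and 8.53 CPM in High-Dose-PBS and 3.42, 5.54 and 3.95 CPM in High-Dose-IL2, and Cd79b at 10.9, 8.85 and 14.9 and 12.8, 21.6 and 15.7 CPM. High-dose IL-2 changed none of the 13 tested markers and FP lowered 4, against 11.9% of all genes lowered by FP. Summed CD8 T and NK cell markers were 38 to 46 CPM in 72h-PBS and 22.2 to 27 CPM in 72h-FP, where FP lowered 3 of 6. In the high-dose experiment they were 28.9 to 33.6 CPM with PBS and 28.5 to 34.9 CPM with IL-2. Helper T cell markers were 251 to 293 CPM in High-Dose-PBS and 197 to 238 CPM in High-Dose-IL2. At 72 h they were 245 to 280 CPM with PBS and 231 to 262 CPM with FP. Erythroid and platelet markers were 81.2 to 88.6 CPM in 72h-PBS, 124 to 169 CPM in 72h-FP and 28 to 80.2 CPM in the high-dose libraries. The part of these cells in the results was not tested.

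Promoter sequences were compared by counting matches on both strands of the 300-base windows, where matches can overlap. The STAT motif TTCNNNGAA was in 6.99% of the 13227 promoters of tested genes, TTTGAA in 12.5%, CCAAT in 37.2% and GAAANNGAAA in 3.09%. Of the 17 genes below 0, 12 matched a RefSeq promoter and 3 of these held the STAT motif, namely Cish, Pprc1 and Usp27x. Of the 16 genes above 0, 14 matched and 3 held it. Of the 74 genes higher in both effects, 39 matched, and TTTGAA was found for 18 of these genes, CCAAT for 25, GAAANNGAAA for 5 and the STAT motif for 7. The percentages count promoters, whereas the sets count genes with a match in any promoter, so they are not like for like. Kcnj16 and Zeb2, above 0 with the STAT motif, have 4 promoters each. These are counts of letters in these windows, and no test was made of them.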

How the data were processed

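RNA-seq counts of sorted splenic Tregs were used from 20 samples. Per the series' design text, the authors aligned reads to GRCm38 with STAR 2.5.0 and counted them per GENCODE M13 gene with featureCounts 1.5.0, and the tables were deposited as raw counts. Whether counting used strand, and duplicate handling, are not given in the sources used here. On the values, every gene of each deposited table exceeds 0.5 CPM in at least 3 columns, so genes low in every group are missing. RNA was depleted of ribosomal RNA, per the labels' protocols. Column names were matched to samples by the sample labels.

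Both runs of a 72 h library were added, since they differed by little more than sampling noise (chi-square per degree of freedom 1.04 to 1.08, against 5.87 or more between libraries). Counts were tested with edgeR 4.0.16 (R 4.3.3), quasi-likelihood, TMM factors over the 13 libraries, table totals as library sizes and filterByExpr, which removed no gene. The difference was 1 contrast over 4 groups. Each effect was fitted on its own table with the same factors. Benjamini-Hochberg adjustment covered all 16514 genes, with calls under 0.01, the false discovery rate of the series' text. Values after ± are standard errors, intervals are 95%, and log2 CPM used a prior count of 2. On simulated counts of the same design the script was checked for recovery of known changes. The simulated libraries all had the same spread, unlike those of these experiments, so the check does not bear on unequal spread. Totals of 18688901 to 31527061 reads bound the counting error, and replicate numbers limit the precision.

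Genes named were the 10 above and 10 below 0 with the largest differences past the test (mean of 5 CPM or more, arms apart, no predicted genes). The rule also took the 8 highest shared genes by the smaller change, with the same mean and no predicted genes. No lower shared gene met it. A panel of 30 and up to 4 per gene list with the smallest p were added. Ikzf2, Bysl, Rmi2, Cybb, Prag1, Anxa2 and other genes outside the rule were chosen after their values were seen. Members and lists were chosen with earlier results of these data known. Alternatives were DESeq2 1.42.0, limma 3.58.1 voom, other scalings, single runs, added 72h-IL2 libraries, a replicate block and left-out libraries. Gene positions come from the GENCODE annotation of GRCm38 and promoters from RefSeq GRCm38.p6. Genes in 1 table only took no part in the comparison, and 16480 tested genes had a symbol.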

Additional observations from a re-analysis of the deposited data

Results flagged for a closer look

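In 6 of the 139 named genes 1 of the 4 72h-FP libraries stood apart from the other 3, by the gap to its nearest neighbour divided by the range of the group. A share of about 1 in 20 is given by chance. The ratio was 0.914 for Ckap2l, 0.862 for Gzma, 0.844 for Ccr7, 0.85 for Ccl5, 0.842 for Igfbp4 and 0.888 for Rrm1. In each of these 6 genes the library was 72h-FP 4, with 26.3 CPM for Ckap2l against 50.6 to 52.9 in the others. It had 10.3 CPM for Gzma, 66.4 for Ccr7, 3.64 for Ccl5, 68.2 for Igfbp4 and 146 for Rrm1. For the chemokine gene Ccl5 it was the highest of the 4, and for the other 5 genes the lowest.

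The effects of both ligands differed, by the test of the difference in edgeR, for 33 genes, of which 22 are named by the rule. Above 0 the log2 differences, high-dose IL-2 minus FP, were 4.77 for Spic, 4.71 for Grk3, 4.31 for Zeb2, 3.64 for Kcna2, 3.52 for Themis2, 3.51 for Jup, 3.15 for Tcf7l2, 2.75 for Abca1, 2.63 for Rims3 and 2.57 for Sdc3. Below 0 they were -4.23 for Drc1, -3.66 for Tcrg-C1, -2.72 for Myo6, -2.66 for Lif, -2.54 for Kcnk5, -2.42 for Lonrf1, -2.30 for Socs1, -2.21 for Cish, -2.15 for Dna2, -1.92 for Usp27x, -1.67 for Il2ra and -1.58 for Rrp12. Experiment, dose and time cannot be told apart from ligand in any of them.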

How the results depend on the processing

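All 33 difference genes and all 75 high-dose genes kept their direction in every alternative, but the counts moved. The 33 became 447 with DESeq2, 108 with library totals alone, 80 with 2 separate fits combined (60 above 0, 20 below), 3779 with limma voom and sample weights, 109 with 72h-IL2 libraries added, 14 and 18 with the first or second run only, 80 without High-Dose-PBS 3 and High-Dose-IL2 2, 1112 with the TEC share as a slope and 231 at a threshold of 0.05. The 75 became 544 with DESeq2, 2114 with voom, 2189 with the TEC slope, 323 at 0.05, and 0 with factors from within each table or library totals alone. The 4017 FP calls became 6815 at 0.05. Shared calls became 472, 1183, 1161 and 304 under DESeq2, voom, the TEC slope and 0.05, and 0 under both scalings. Opposite calls, 0 at first, became 2, 64 and 38 under DESeq2, voom and the TEC slope. Calls in 1 arm past the difference, 29, became 374, 73, 76, 2382, 89, 11, 17, 63, 878 and 204 in the order given for the 33. Shared genes of like size, 4, became 0 under both scalings, 607 with voom, 9 without both libraries, 620 with the TEC slope and 41 at 0.05. The cause of these moves was not tested. Single libraries left out gave 0 to 41, 0 to 75 and 1898 to 5222 genes for the 3 effects, 0 to 75 shared, 0 to 0 opposite, 0 to 34 in 1 arm and 0 to 6 of like size. The replicate numbers did not pair the libraries (correlations of same-numbered deviations 0.061, -0.82 and -0.629 in the high-dose and 0.281, 0.0486 and 0.138 in the 72 h experiment). With a replicate block the counts were 0, 0, 6633, 0 shared, 0 in 1 arm and 0 of like size. Both-libraries-out, the TEC slope and the omission of genes high in 72h-PBS were chosen after seeing the data. Of the alternatives' values for named differences, 3031 kept their side of the threshold, 171 gained and 273 lost a call, and no called one changed sign. Using 1 run only lowers the depth of the 72 h libraries, and the part of depth in these counts was not tested.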

Other observations

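The 72 h table held 2478 genes that are not in the high-dose table, of which 1542 were tested with FP against 72h-PBS alone. FP raised 112 of them and lowered 295 (edgeR, adjusted p under 0.01). Among those lower were Vsig4, a complement receptor of tissue macrophages, with a log2 change of -7.18, the lipid transporter gene Abca9 at -6.98, the sterol hydroxylase gene Cyp27a1 at -6.43 and the macrophage membrane gene Ms4a7 at -5.37. Their mean levels were 0.741, 7.38, 5.01 and 3.33 CPM in 72h-PBS and 0, 0.0543, 0.0506 and 0.0826 CPM in 72h-FP. The sizes of these changes thus rest on values near 0. Among those higher were Tcrg-C3, another constant segment of the T cell receptor gamma locus, at 6.51, and Cdkn2a, which encodes cell cycle inhibitors, at 5.84. Mean levels in 72h-PBS and 72h-FP were 0.0141 and 1.68 CPM for Tcrg-C3 and 0.0813 and 4.82 CPM for Cdkn2a. These genes were picked after their values were seen. The high-dose table held 154 genes that are not in the 72 h table, and these were not analysed here.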
